A study of Mus musculus with 12 samples.

Results

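Interferon-stimulated genes are the transcripts that cells switch on when an interferon binds its receptor. They were followed here in mouse T helper 1 (Th1) cells labelled as a conditional knockout of Sdhc, set against wild-type cells. The set was fixed by gene symbol and holds 36 named genes, 26 of a type I interferon type and 10 of an interferon gamma type (Irf1, Gbp2, Gbp3, Gbp4, Gbp5, Gbp7, Igtp, Iigp1, Irgm1 and Tap1). Of these, 35 were matched among the 18929 gene symbols measured, and Ifit3b was not analysed here. A value over 10 in at least 3 libraries, the filter used before testing, was met by 32 of the 35. Oas2, Oasl1 and Ifi44 fell under it, and they had at most 8.13, 10.2 and 10.8 normalised counts in any library.

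The cells were T cells of the C57BL/6 strain, held for 5 days in culture under Th1 conditions and sorted before RNA extraction. The Sdhc cKO group had 3 libraries, whose genotype label marks a conditional knockout of Sdhc, a membrane subunit of succinate dehydrogenase. The control group had 3 libraries of wild-type (WT) genotype. The driver of the deletion is not named in the labels, and whether the libraries came from separate animals or cultures is not stated, so the p-values rest on library-to-library spread. Of the series' 12 samples, the 6 others (Slc25a1 and Slc25a11 knockouts and an empty vector) were not analysed here.

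Interferon alpha and beta bind one receptor and signal through the kinases JAK1 and TYK2 to a complex that holds STAT2 and IRF9 and binds a DNA element named ISRE. Interferon gamma, the hallmark cytokine of Th1 cells, binds another receptor and signals through JAK1 and JAK2 to genes that carry an element named GAS. Th1 cells both make and sense interferon gamma. Many genes answer to both kinds of interferon, so the division into types is one of degree. Cxcl10, which interferon gamma also induces, is counted with the type I type by the definition used.

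The letters of these elements, a property not used to choose the genes, were searched on both strands of the 250 bases before each RefSeq gene start (GRCm38.p6). ISRE was searched as GAAA, 2 bases of any kind and GAAA again, and GAS as TTC, 3 bases of any kind and GAA; matches may overlap. Of the 36 genes, 29 had a promoter in the table, 21 of the type I type and 8 of the interferon gamma type. The ISRE letters stood before 10 of the 21 (47.6%) and 6 of the 8 (75%), against 2.98% of all 32851 promoters. The GAS letters stood before 3 of the 21 (14.3%) and 4 of the 8 (50%), against 7.02% of all promoters. A match is a description of letters and not a site shown to be bound. Tap1, Irf7, Irf9, Ddx58 and Cmpk2, whose values are also described below, had neither the ISRE nor the GAS letters. The stretches of 7 promoters that hold a match are shown, all of genes whose values are described next. Capitals mark the ISRE and GAS letters, and each is written 5′ to 3′ on the strand of its gene.
Isg15, chr4:156200858-156200913, minus strand: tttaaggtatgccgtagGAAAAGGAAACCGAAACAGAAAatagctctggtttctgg
Ifit1, chr19:34640769-34640829, plus strand: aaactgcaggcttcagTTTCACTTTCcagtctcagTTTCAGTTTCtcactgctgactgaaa
Rsad2, chr12:26456547-26456587, minus strand: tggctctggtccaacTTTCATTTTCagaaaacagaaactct
Gbp2, chr3:142620583-142620633, plus strand: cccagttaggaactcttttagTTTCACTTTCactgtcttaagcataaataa
Igtp, chr11:58199491-58199546, plus strand: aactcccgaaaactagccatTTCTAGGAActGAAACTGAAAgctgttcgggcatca
Irgm1, chr11:48871425-48871470, minus strand: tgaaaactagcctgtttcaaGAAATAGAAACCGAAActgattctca
Irf1, chr11:53769904-53769954, plus strand: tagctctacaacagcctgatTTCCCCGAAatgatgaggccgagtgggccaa
The Isg15 stretch holds 3 overlapping ISRE matches and the Irgm1 stretch 2. That of Ifit1 holds 2 separate matches, Igtp has a GAS and an ISRE match side by side, and Irf1 has the GAS letters alone.

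Each value is a gene's reads divided by the size factor of its library, a normalised count. The libraries held 18144933 to 21983821 counted reads, and T cell identity genes summed to 87408 to 101100 normalised counts in cKO and 87267 to 91559 in control. Sdhc averaged 1556 ± 102 in cKO and 1726 ± 149 in control (SD, n = 3 each) and was not called; counts over a whole gene cannot show a lost exon, so they do not check the labels. Libraries numbered 1 stood apart in both groups. Transcripts of 4 Y-linked genes made up 0.207, 193 and 189 RPM (reads scaled to the library total) in cKO 1, 2 and 3, against 0.048, 131 and 55.1 RPM in control 1, 2 and 3. Xist, which is transcribed from the inactive X, had 7565, 0 and 2.15 normalised counts in cKO 1, 2 and 3 and 9780, 2490 and 6406 in control 1, 2 and 3, so control 2 and control 3 held both kinds of transcript. The libraries of a group thus did not all hold the same cells, and these transcripts were not balanced between the groups. The fit with the Y-linked share as a covariate is given at the end for the genes it changed most.

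Per kilobase of annotated exon the level of the members spanned a wide range. Igtp, an immunity-related GTPase, was the most abundant, at 4049 normalised counts per kilobase in cKO and 4090 in control. Igtp overlaps Irgm2 on the same strand, so the division of reads between them is uncertain. Gbp2, a guanylate-binding protein, followed at 3179 in cKO and 3019 in control, and Tap1, a subunit of the peptide transporter for MHC class I, at 1508 in cKO and 1378 in control. The most abundant of the type I type was Bst2, the virion tether tetherin, at 1062 per kilobase in cKO and 1057 in control. Stat2 had 293 in cKO and 288 in control, Isg15 100.3 in cKO and 72.6 in control, and Rsad2 9.73 in cKO and 5.79 in control. Other antiviral genes were spread between, with Ifit2 at 253 in cKO and 251 in control, Oas3 at 68.2 and 70.5, and Ifit1 at 45.1 and 34.8. Of the lower antiviral effectors Mx1, Rsad2, Cmpk2, Oas1a and Oasl2, the most abundant was Mx1 with 16.1 in cKO and 17.4 in control. The least abundant interferon gamma-type gene, Iigp1, had 180.2 in cKO and 193.7 in control.

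**Figure D1:**
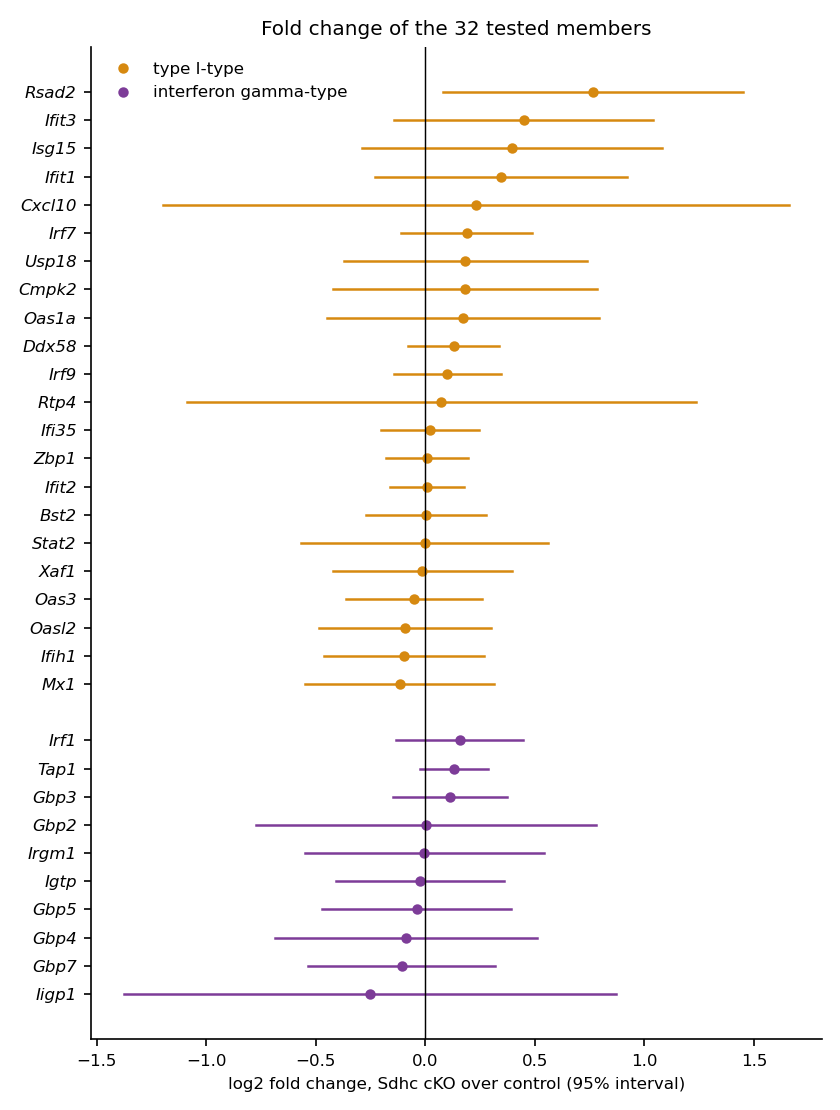
Log2 fold change of the 32 tested members, Sdhc cKO over control, on the log2(normalised count + 1) scale. Points are the estimates from limma and lines their 95% intervals, type I-type genes above and interferon gamma-type genes below. The interval of Rsad2, from 0.08 to 1.45, is the only one drawn that lies wholly on one side of 0.

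No interferon-stimulated gene passed the test between Sdhc cKO and control. By limma on log2(normalised count + 1), adjusted over all genes, 0 of the 32 members were called, where 0 of all 12699 tested genes (0%) were, and the adjusted p was 0.978 or more for every member. At an unadjusted p under 0.05 stood 1 member, Rsad2, and 445 of all genes (3.5%). On reads recovered from the table, edgeR called 0 members and 0 of all genes (3.58% at an unadjusted p under 0.05), and DESeq2 called 0 members and 2 of all genes (0.0157%, with 2.3% at an unadjusted p under 0.05). Fold changes are given as log2FC, cKO over control, with the moderated standard error (SE). Of the 22 tested type I-type genes 16 had a positive fold change, with a median of 0.09 on the log2 scale. Of the 10 interferon gamma-type genes 4 had a positive fold change, with a median of -0.01. Over all tested genes 45.9% were positive and the median was -0.01. The type I-type median was 0.01 when only genes with a value over 50 in 3 libraries were kept. The interferon gamma-type median turned positive with upper-quartile scaling, edgeR and DESeq2 (0.02 in each). In the same order, the median over all tested genes was 0.02, 0.004 and -0.001.

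Ifng, the gene of interferon gamma itself, lay lower in every cKO library than in any control library. Of the 10 interferon gamma-type genes 1 lay wholly above the controls and 0 wholly below, against 4.51% and 5.64% of all tested genes. Ifng had 858, 880 and 865 normalised counts in cKO, against 1342, 1461 and 1342 in control. Its log2FC was -0.67 (SE 0.07). It was not called by limma on genotype alone (adjusted p = 0.265) and was called with the replicate number as a block (limma adjusted p = 0.0255) and with DESeq2 (adjusted p = 1.19e-07). Markers of Th1, NK and gamma delta T cells had mostly negative fold changes beside it, while those of CD8 T cells were positive. The part of these cells in the Ifng values was not tested. Of the Th1 list, which holds Ifng itself, 8 of 10 tested genes were negative (median -0.17). Of the NK cell list 4 of 4 tested genes were negative (median -0.49), and of the gamma delta T cell list 4 of 4 (median -0.62, with 2 at an unadjusted p under 0.05). Of the CD8 T cell list 2 of 2 tested genes were positive (median 0.24). By limma on genotype alone 0 genes of these lists were called. In bulk RNA, fewer cells that express a gene and less RNA per cell cannot be told apart. Igtp, which interferon gamma induces, had 6515, 9872 and 8175 in cKO and 6988, 9419 and 8403 in control. The Igtp groups overlapped over most of their range, with a log2FC of -0.02 (SE 0.17) and a 95% interval of -0.41 to 0.36. That interval does not reach the estimate of Ifng. The same holds for Irf1 (lower limit -0.13), Gbp3 (-0.15), Gbp5 (-0.47), Gbp7 (-0.53), Irgm1 (-0.55) and Tap1 (-0.02). The intervals of Gbp2 (-0.77 to 0.78), Gbp4 (-0.69 to 0.51) and Iigp1 (-1.37 to 0.87) do reach it. At Gbp2, Gbp4 and Iigp1 a difference of that size thus cannot be told from 0. Ifng itself had a 95% interval of -0.84 to -0.50, and the intervals of Gbp7 and Irgm1 reach into that range. A difference within the range of Ifng is thus not excluded at Gbp7 and Irgm1 either. All these intervals are from limma on genotype alone, which leaves the replicate number out.

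**Figure D2:**
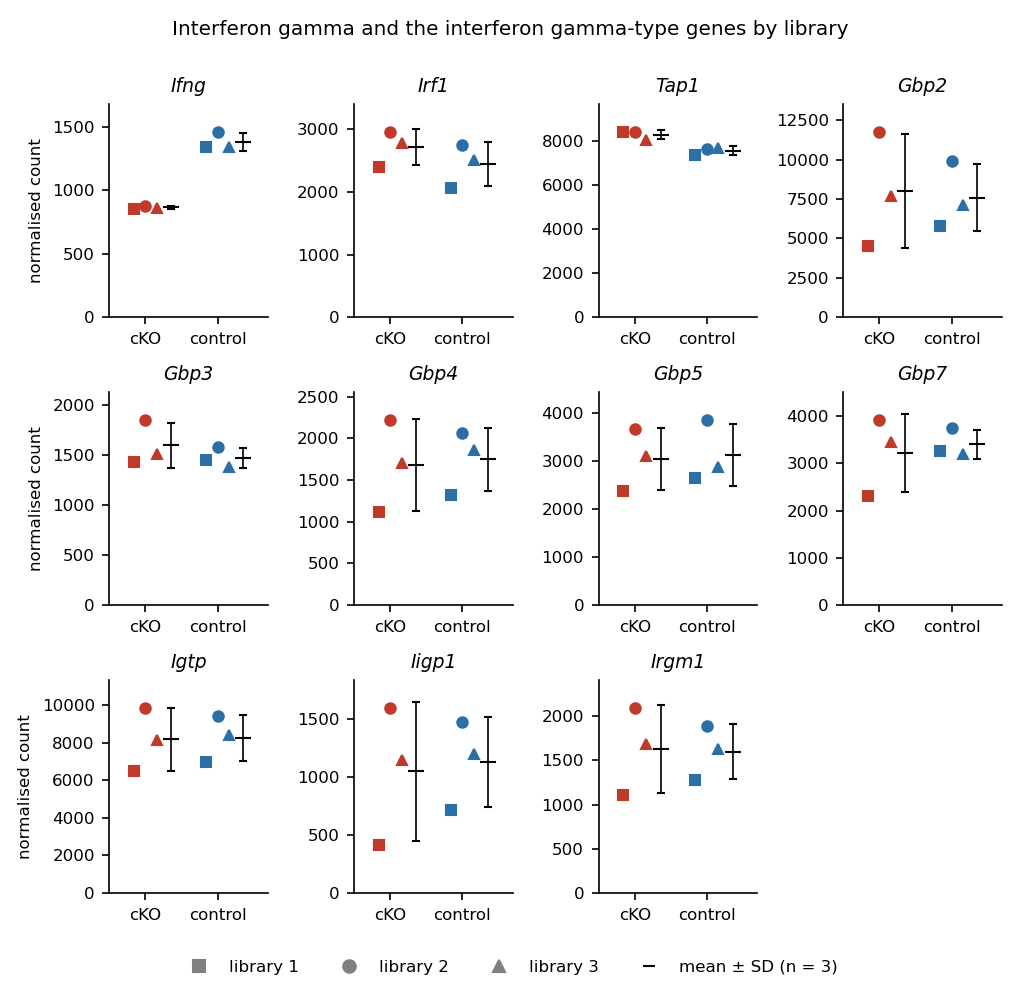
Normalised counts of Ifng and the 10 interferon gamma-type genes in each library, Sdhc cKO left and control right, with squares, circles and triangles for libraries 1, 2 and 3 and the mean ± SD (n = 3). Ifng and Tap1 are the panels in which the groups do not overlap, and in most GTPase panels the square lies lowest in both groups.

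Among the interferon gamma-type genes, Tap1 and Irf1 stood highest in fold change. Tap1 (chromosome 17, 34187553 to 34197225, plus strand, GRCm38) had 8376, 8386 and 8017 normalised counts in cKO and 7326, 7618 and 7685 in control. Every cKO library was above every control library, by a log2FC of 0.13 (SE 0.07; 2-sided exact permutation p = 0.1, the smallest that 3 against 3 allows). Tap1 overlaps Psmb9, an immunoproteasome subunit gene on the opposite strand, and the strand setting of the counting is not given. Psmb9 had means of 3622 ± 262 in cKO and 3481 ± 202 in control (SD, n = 3 each), and Tap2, the other subunit of the transporter, 1947 ± 153 in cKO and 1693 ± 79.8 in control. Tap2 also had no overlap between the groups, with a log2FC of 0.20 (SE 0.08).

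Irf1, a transcription factor that interferon gamma induces, had 2401, 2956 and 2786 normalised counts in cKO and 2068, 2751 and 2510 in control. It was higher in cKO in all 3 same-numbered pairs, although the groups overlapped (log2FC 0.16, SE 0.12; with the replicate block SE 0.06, limma adjusted p = 0.340). Of the 32 members, 9 were higher in cKO in all 3 pairs, among them Isg15, Ifit3, Rsad2, Irf7, Irf9, Usp18 and Cmpk2, and 0 were lower in all 3. Over all tested genes 14.6% were higher and 21.8% lower in all 3 pairs. With the replicate block, too, 0 members were called, the lowest limma adjusted p being 0.304 for Rsad2, where 1 of all genes (0.00787%) was called and 12.6% had an unadjusted p under 0.05.

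The guanylate-binding proteins and immunity-related GTPases, which attack the vacuoles of intracellular pathogens, differed far more between libraries of a group than between groups. Gbp2 had 4530, 11758 and 7707 normalised counts in cKO and 5784, 9908 and 7098 in control. Library 1 was the lowest and library 2 the highest in both groups. The highest cKO library was 2.60 times the lowest and the highest control library 1.71 times the lowest, while the log2FC between groups was 0.00 (SE 0.33).

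Iigp1, an immunity-related GTPase that loads onto parasite vacuoles in mice, had the widest spread of them. Its values were 409, 1594 and 1144 in cKO and 712, 1476 and 1196 in control. The cKO libraries differed by up to 3.90 times and the control libraries by up to 2.07 times, and the log2FC was -0.25 (SE 0.48). Irgm1, a regulator of these GTPases, had 1109, 2095 and 1683 in cKO and 1279, 1892 and 1632 in control. It kept the same order of libraries in both groups, as did Gbp4, with 1112, 2223 and 1709 in cKO and 1327, 2060 and 1857 in control. Gbp5 had 2375, 3659 and 3094 in cKO and 2644, 3852 and 2865 in control. Gbp7 and Gbp3 were less regular: library 1 was lowest in cKO only, with 2311, 3922 and 3455 in cKO and 3269, 3753 and 3195 in control for Gbp7, and 1426, 1850 and 1513 in cKO and 1445, 1584 and 1382 in control for Gbp3.

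The share of each gene's variation on the log2 scale that followed the replicate number was large in this group. Its median over the 10 interferon gamma-type genes was 90.1%, against 46.7% over the 22 of the type I type and 57% over all tested genes. The share that followed genotype had medians of 2.5%, 8.98% and 12.1%. Library 1 was the lowest of its group in both groups at 7 of the 10 interferon gamma-type genes (70%), against 26.8% of all tested genes. Tap1 was the exception, with 82.5% of its variation following genotype. Of the summed markers of other cells, those of NK cells were 419, 337 and 367 in cKO and 477, 524 and 499 in control, those of myeloid cells 187, 105 and 152 in cKO and 142, 123 and 117 in control, those of CD8 T cells 398, 547 and 235 in cKO and 291, 368 and 278 in control, and those of B cells 1916, 2070 and 1864 in cKO and 1624, 1979 and 1812 in control. Library 2 was the highest in both groups for the CD8 T cell and B cell sums, as it was for Gbp2 and Iigp1, and library 1 was the highest in both for the myeloid sum. The Y-linked transcripts moved with the replicate number too, and the part of these cells and transcripts in the GTPase pattern was not tested.

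**Figure D3:**
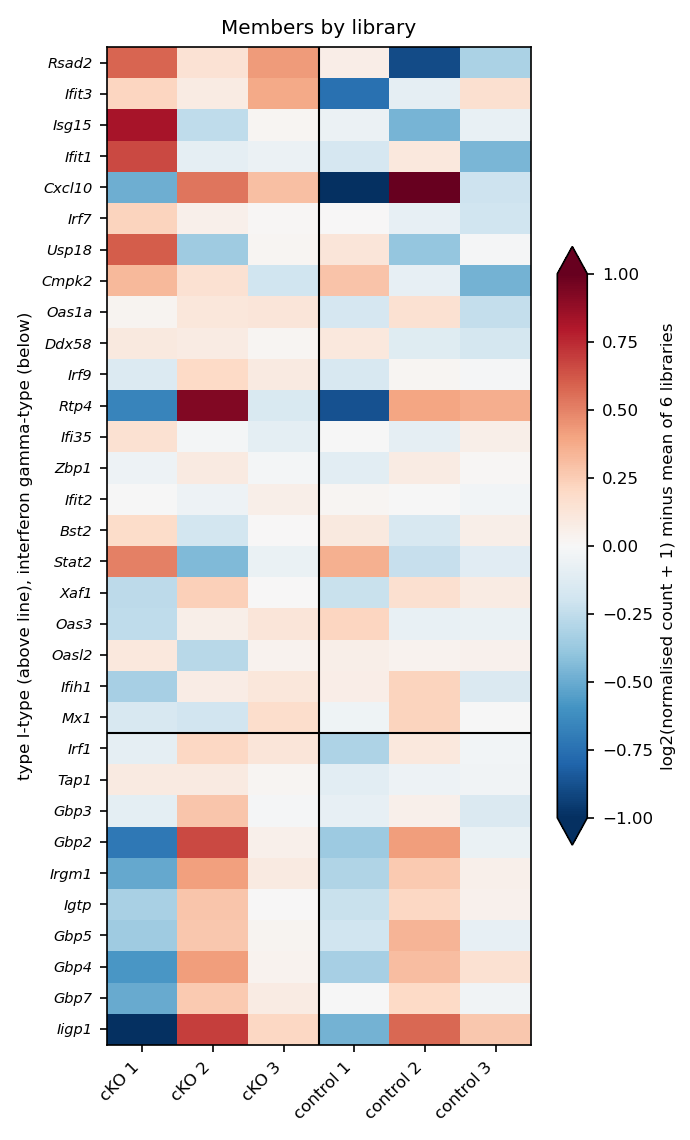
Each tested member in each library, as log2(normalised count + 1) minus the mean of the 6 libraries (colour, limited to -1 and 1, with 3 values beyond it), cKO libraries left and control libraries right. Below the black line, most guanylate-binding proteins and GTPases are blue in cKO 1 and control 1, while above it Stat2 and Usp18 are red in these libraries.

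Several type I-type genes ran the other way across the libraries. Stat2, a transcription factor of type I signalling, had 2374, 1235 and 1602 normalised counts in cKO and 2140, 1425 and 1548 in control. Library 1 was the highest in both groups, and the group means of 1737 ± 582 in cKO and 1704 ± 383 in control (SD, n = 3 each) hardly differed, with a log2FC of -0.00 (SE 0.24) that turned positive under every other scaling tried. Usp18, a protease that removes ISG15 and dampens the type I receptor, had 1072, 550 and 715 in cKO and 766, 539 and 698.5 in control. Library 1 was again the highest in both groups, and the cKO mean lay at 117% of control (log2FC 0.18, SE 0.24). Without cKO 1 the log2FC of Usp18 was -0.075. Library 1 was the highest in both groups at 9 of the 22 type I-type genes (40.9%) and at 0 of the 10 interferon gamma-type genes, against 25.3% of all tested genes.

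Of the transcription factors that carry type I signals onward, Irf7 separated the groups by a small margin. Irf7, which amplifies type I interferon production, (chromosome 7, 141262706 to 141266481, minus strand, GRCm38) had 191, 169 and 165 normalised counts in cKO and 164, 154 and 142 in control. The lowest cKO value lay just above the highest control value, and the log2FC was 0.19 (SE 0.13; exact permutation p = 0.1). Phrf1 overlaps Irf7 on the opposite strand. Irf9, the DNA-binding part of the type I complex, had 981, 1239 and 1148 in cKO and 968, 1092 and 1071 in control, with overlapping groups (log2FC 0.10, SE 0.11). Rnf31 overlaps Irf9 on the same strand, so the division of reads between them is uncertain.

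The largest fold change of the set was that of Rsad2, which encodes viperin, an enzyme that makes a chain-terminating nucleotide against viruses. Rsad2 (chromosome 12, 26442746 to 26456452, minus strand, GRCm38) had 48.2, 35.2 and 43.0 normalised counts in cKO and 33.3, 16.7 and 25.3 in control. No cKO library was as low as any control library, and the means were 42.2 ± 6.52 in cKO and 25.1 ± 8.34 in control (SD, n = 3 each). The log2FC was 0.77 (SE 0.30, 95% interval 0.08 to 1.45), and the gene did not pass (limma adjusted p = 0.978). Its exact permutation p was 0.1, the smallest that 3 against 3 allows. Cmpk2, a nucleotide kinase encoded next to Rsad2, had 56.2, 49.7 and 38.7 in cKO and 54.6, 42.1 and 31.9 in control, with a log2FC of 0.18 (SE 0.26). Rsad2, Irf7 and Tap1 were the 3 of 32 members whose cKO libraries all lay above the controls, where 4.51% of all tested genes did, and 0 members lay wholly below, against 5.64%.

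**Figure D4:**
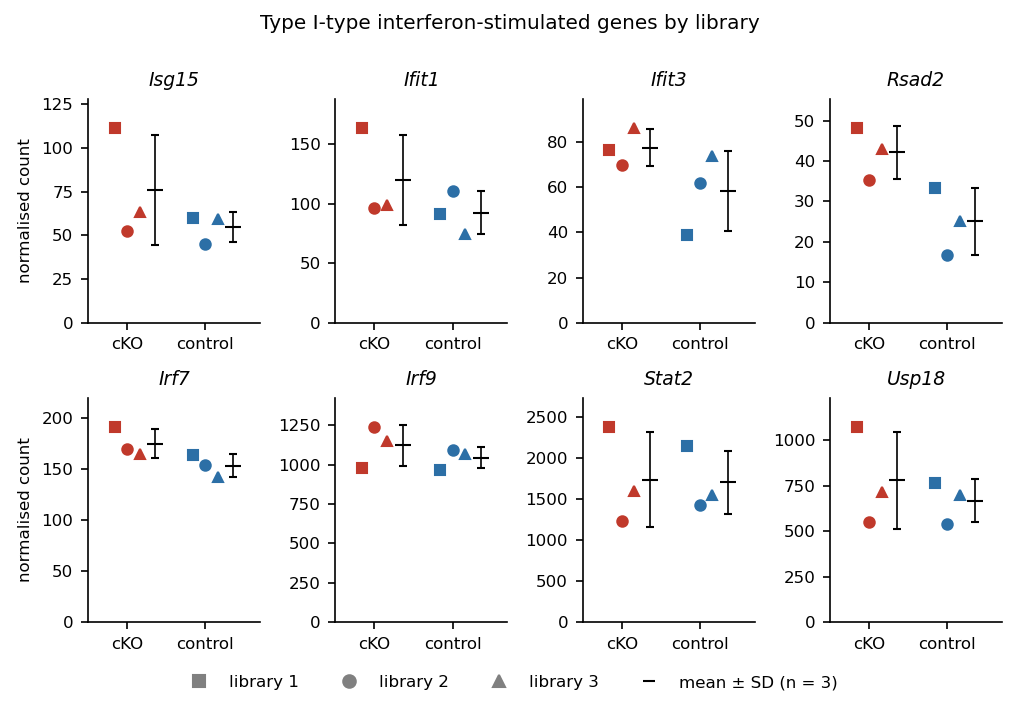
Normalised counts of 8 type I-type genes in each library, Sdhc cKO left and control right, with squares, circles and triangles for libraries 1, 2 and 3 and the mean ± SD (n = 3). cKO 1 is the highest library for Isg15, Ifit1, Rsad2, Irf7, Stat2 and Usp18, and the groups are separate for Rsad2 and Irf7.

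For 2 further antiviral genes the higher cKO mean came mostly from cKO 1. Isg15, a ubiquitin-like modifier, had 111.5, 52.4 and 63.5 normalised counts in cKO and 60.2, 45.1 and 59.4 in control. cKO 1 was far above the other 5 libraries; the log2FC was 0.40 (SE 0.29) with all libraries and 0.08 without cKO 1. Ifit1, which binds viral RNA that lacks the cap methylation of host mRNA, had 163.7, 96.7 and 99.0 in cKO and 91.7, 111 and 74.8 in control. Its log2FC was 0.35 (SE 0.25) with all libraries and 0.10 without cKO 1. Ifit3, a partner of IFIT1, had 76.3, 69.6 and 86.1 in cKO and 38.9, 61.7 and 73.7 in control, and there control 1 was the low library (log2FC 0.45, SE 0.25, and 0.19 without control 1). Reads of Ifit3 may be shared with its near copy Ifit3b, so its values are uncertain. Ifit2, the most abundant of the family, was level across all 6 libraries, at 989, 955 and 1033 in cKO and 1004, 987 and 970 in control (log2FC 0.01, SE 0.07, 95% interval -0.16 to 0.18).

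The oligoadenylate synthetases, which activate RNase L on double-stranded RNA, showed no difference beyond the spread. Oas3 had 409, 507 and 529.5 normalised counts in cKO and 565, 464 and 466 in control (log2FC -0.05, SE 0.13). Oasl2 and Oas1a had log2FC values of -0.09 (SE 0.17) and 0.17 (SE 0.27). The sensors of viral RNA, Ddx58 (RIG-I) and Ifih1 (MDA5), had log2FC values of 0.13 (SE 0.09) and -0.10 (SE 0.16), and Zbp1, a sensor of Z-form nucleic acid, 0.01 (SE 0.08). Zbp1 was among the steadiest of the set, with 1468, 1616 and 1499 in cKO and 1414, 1608 and 1539 in control. Mx1, a dynamin-like antiviral GTPase, had 56.2, 55.1 and 71.0 in cKO and 61.1, 73.5 and 62.7 in control, with the lowest fold change of the type I type (log2FC -0.12, SE 0.19). Ifi35 and Xaf1 had log2FC of 0.02 (SE 0.10) and -0.01 (SE 0.18), and Bst2 0.00 (SE 0.12). Rtp4 and Cxcl10 were low and scattered. Rtp4, a receptor chaperone gene, had 14.1, 44.3 and 20.4 in cKO and 12.0, 30.4 and 29.7 in control. Cxcl10, a chemokine that draws CXCR3-bearing T cells, had 7.03, 15.4 and 12.9 in cKO and 3.70, 23.5 and 8.80 in control, and its log2FC of 0.23 (SE 0.62) had an interval from -1.20 to 1.66.

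Up the pathway, ligands other than Ifng were near or at the floor. Ifna2, Ifnk and Ifnl3 had at most 2.01, 6.46 and 1.85 normalised counts in any library, while Ebi3, a subunit of IL-27 and IL-35, had 41.2, 52.4 and 43.0 in cKO and 45.4, 57.8 and 40.7 in control; 8 other listed ligands were not analysed here. Receptors and kinases were well expressed. Ifngr1, the ligand-binding chain of the interferon gamma receptor, averaged 7437 ± 1220 in cKO and 6925 ± 657 in control, and Ifngr2, its signalling chain, 189 ± 31.6 in cKO and 177 ± 20.5 in control (SD, n = 3 each). Ifnar2, a chain of the type I receptor, had 1350, 1305 and 1263 in cKO and 1188, 1126 and 1167 in control. All cKO values of Ifnar2 were above the controls (log2FC 0.17, SE 0.07). Ifnar1, the other chain, had a log2FC of 0.06 (SE 0.13), and the kinase genes Jak1, Jak2 and Tyk2 had 0.03 (SE 0.08), -0.08 (SE 0.11) and 0.01 (SE 0.09).

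Socs1, the feedback inhibitor of JAK kinases, was level, with means of 2254 ± 113 in cKO and 2191 ± 44.9 in control (SD, n = 3 each). Irf8, another interferon regulatory factor, which interferon gamma also induces, was lower in cKO without overlap, with 2912, 2494 and 2477 in cKO and 2927, 3280 and 3152 in control (log2FC -0.25, SE 0.09). Of the 14 tested genes of receptors, kinases and STAT or IRF factors 10 had positive fold changes, with a median of 0.03 and 0 called. Of 14 negative regulators 5 were positive (median -0.03, 0 called); the lowest p values were those of the RNase H2 subunit genes Rnaseh2c (log2FC -0.21, SE 0.13) and Rnaseh2b (-0.17, SE 0.12). Of 16 nucleic acid sensing genes 6 were positive (median -0.01, 0 called), and the adaptor gene Myd88 had 1108, 1231 and 1152 in cKO and 1305, 1404 and 1331 in control, a log2FC of -0.21 (SE 0.08). Next in that list was Eif2ak2, the gene of the kinase PKR (-0.14, SE 0.13).

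On genotype alone, 0 of the interferon-stimulated genes tested outside the set were called by limma, of which 1 type I-type and 3 interferon gamma-type genes had an unadjusted p under 0.05. Of 40 further tested type I-type genes 22 had positive fold changes, with a median of 0.01 and 0 called. Samd9l, an antiviral factor, had a log2FC of -0.32 (SE 0.13) and Uba7, which activates ISG15, 0.14 (SE 0.07). Of 31 further tested interferon gamma-type genes 20 were positive, with a median of 0.04 and 0 called. Gbp8 had 957, 1075 and 1007 normalised counts in cKO and 776, 904 and 802 in control. All its cKO libraries were above the controls (log2FC 0.29, SE 0.09), but Gbp8 overlaps Gbp4 on the same strand and the family is made of close copies, so the division of reads among them is uncertain. Casp4, an inflammatory caspase, was lower in every cKO library, with 371, 313 and 271 in cKO and 455, 409 and 403 in control (log2FC -0.42, SE 0.13).

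When the Y-linked share of reads was added as a covariate, 2 of the 32 members passed, in opposite directions. Iigp1 had a log2FC of -0.82 (SE 0.13, limma adjusted p = 0.0126), lower in cKO, and Usp18 0.45 (SE 0.10, limma adjusted p = 0.0341), higher in cKO. In that fit 6.5% of all tested genes were called (25.8% at an unadjusted p under 0.05), and 2 of 32 is a share near that. The covariate is near 0 in libraries 1, and without libraries 1 of both groups the values were 0.02 for Iigp1 and 0.03 for Usp18, with limma adjusted p of 0.981 and 0.976. The median of the interferon gamma-type genes was -0.26 with the covariate and 0.09 without libraries 1, so neither the size nor the sign of the genotype difference at these genes held across the ways of treating libraries 1. With the covariate, Irf1 had a log2FC of 0.04 and Irf9 of 0.01, Gbp4 of -0.37 and Irgm1 of -0.27, while Tap1 stayed at 0.13 and Rsad2 had 0.97 (limma adjusted p = 0.0613).

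Outside the set, the covariate called further genes, most of them lower in cKO. The 4 Y-linked genes themselves had a median log2FC of -2.45 in that fit, against 0.87 on genotype alone. The covariate thus did not level the transcripts it was made from. Xist was called lower in the same fit (-4.23, limma adjusted p = 0.0497). Of the 40 other type I-type genes 3 were called, and of the 31 other interferon gamma-type genes 6, against 6.5% of all tested genes. The called GTPase genes were Ifi47 (log2FC -0.41), Tgtp1 (-0.64), Tgtp2 (-0.56) and Gvin1 (-0.81), all lower in cKO. Without libraries 1 the values were -0.05, 0.07, 0.16 and -0.09, with 0 of the 4 called. Also called lower were Samd9l (-0.41), Lgals3bp (-0.49), Lap3 (-0.55) and Wars (-0.34), and H2-T23, a nonclassical MHC class I gene, was called higher (0.36). Up the pathway, Ifng (-0.69, limma adjusted p = 0.00344) and Myd88 (-0.25, limma adjusted p = 0.0492) were called lower and Ifngr1 higher (0.23, limma adjusted p = 0.0443). Without libraries 1, Ifngr1 had 0.03 (limma adjusted p = 0.943) and Ifng -0.68 (limma adjusted p = 0.0633). Of the cell type markers, Tbx21 of the Th1 list was also called lower (-0.36, limma adjusted p = 0.017). Cd3d of the T cell identity list was called higher (0.32, limma adjusted p = 0.0331).

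Of the 11 dendritic and plasmacytoid dendritic cell markers measured, 9 passed the filter on low values, and the list summed to 1433 to 1659 in cKO and 1546 to 1617 in control. Bst2, itself an interferon-stimulated gene, made up most of that sum. Of the 9 tested markers 4 had positive and 5 negative fold changes by limma on genotype alone (median -0.03, 0 called). The MHC class II gene H2-Eb1 had 192, 161 and 155 in cKO and 153, 162 and 140 in control. Flt3 and Itgax, which fell under the filter, had at most 1.10 and 1.96 in any library. The B cell list summed to 1864 to 2070 in cKO and 1624 to 1979 in control, nearly all of it Ighm, an immunoglobulin heavy chain gene. The NK cell list summed to 337 to 419 in cKO and 477 to 524 in control. The gamma delta T cell list summed to 175 to 246 in cKO and 274 to 337 in control. Both sums lay lower in every cKO library than in any control library, with 0 of their genes called. The part of these cells in the values of the interferon-stimulated genes was not tested.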

How the data were processed

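RNA-seq of mouse Th1 cells was taken from 3 Sdhc cKO and 3 control libraries, grouped by title. Libraries were made with an Illumina TruSeq kit, per the labels' protocols. The submitters' processing notes name STAR, HTSeq, DESeq2 and the build mm10; for these, the sources used here state no version, setting, annotation or strand. The table the authors deposited holds 1 signal value per gene and library, reads divided by a size factor: 100% of the values in each library were whole multiples of the value of 1 read (tolerance 0.01), and size factors of 0.909 to 1.11 matched those recomputed by median ratios. In cKO 1 a read is worth 1.00, so close to a raw count that the automatic unit test could not tell them apart; its reads were recovered in the same way.

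The members, gene lists and tests were chosen with earlier results of these data known. Described by name were all members, 10 fixed pathway genes (1 of them is not reported here), genes called on genotype or with the block, and the 2 lowest p of each pathway list; Tap2, Psmb9, the low ligands and markers and the genes called with the covariate were added after their values were seen. The filter kept genes above 10 in 3 or more libraries. These were tested with limma 3.58.1 (R 4.3.3, trend) on log2(value + 1), by genotype alone, and p-values were adjusted by Benjamini-Hochberg with a threshold of 0.05. On that scale the fold changes of low genes come out too small; SE is moderated. Single values were compared by 2-sided exact permutation tests. Alternatives were TMM, library-total and upper-quartile scaling, edgeR 4.0.16 (quasi-likelihood) and DESeq2 1.42.0 on recovered reads, pseudocounts of 0.1 and 5, filters of none and 50, the replicate block, the Y-linked share as a covariate and each library left out. Leaving out libraries 1 of both groups was added after seeing the data.

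Libraries with the same number deviated together from their groups: the correlation over genes was 0.579 for number 1, 0.458 for 2 and 0.188 for 3, each over 0.1, so the numbers were taken to pair the libraries. cKO 3 correlated more with control 2 (0.272) than with control 3, and the labels do not state a pairing. The scripts were tested on simulated data, which held no effect of the replicate number. Positions and exon lengths are from GENCODE M21 (GRCm38, the assembly of mm10), and promoters from RefSeq (GRCm38.p6).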

Additional observations from a re-analysis of the deposited data

How the results depend on the processing

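With all 6 libraries, 0 of the 32 members were called under the other scalings, pseudocounts and filters, with edgeR, with DESeq2 and with the replicate block; the Y-linked share as a covariate called 1 type I-type and 1 interferon gamma-type member (Usp18 and Iigp1) and 826 genes in all. DESeq2 called 2 genes and the replicate block 1, Ifng, whose log2FC with the block was -0.669; the covariate called Ifng too, at -0.693. The block, in which the numbers pair the libraries, changed no other call. Of the 32 members, 12 kept the sign of their fold change in every alternative and 8 changed it in an alternative that kept all 6 libraries, all of them uncalled there.

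The signs that turned were as follows, and the cause was not tested. Stat2 was 0.00377 with TMM, 0.00581 with library totals, 0.0321 with upper-quartile scaling, 0.0452 with edgeR, 0.0395 with DESeq2 and 0.264 with the covariate. Irgm1 was 0.00134 with TMM, 0.00337 with library totals, 0.0297 with upper-quartile scaling, 0.0399 with edgeR and 0.0349 with DESeq2. Xaf1 was 0.0214 with upper-quartile scaling, 0.00998 with edgeR and 0.00554 with DESeq2. Igtp was 0.0101 with upper-quartile scaling and 0.000382 with edgeR. Cxcl10 was -0.00482 with edgeR and -0.0163 with DESeq2. With the covariate, Cxcl10 was -0.312, Rtp4 -0.353, Zbp1 -0.0376 and Gbp2 -0.371. The median of the type I-type genes was 0.121 with upper-quartile scaling and 0.00777 with the filter of 50. In these settings the median over all tested genes was 0.0197 and -0.0268, against -0.0144 in the main fit.

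Without libraries 1 of both groups, a setting chosen after seeing the data, 1 gene was called and the type I-type median was 0.0436. The sign turned for Oas3 (0.156), Ifi35 (-0.0454), Zbp1 (-0.0154), Bst2 (-0.0404), Ifih1 (0.0558), Cxcl10 (-0.0388), Gbp5 (0.0183), Gbp7 (0.088), Igtp (0.014), Iigp1 (0.0238) and Irgm1 (0.0958).

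With each library left out in turn, 0 members were called, 0 to 1 genes were called in all, the type I-type median was 0.0496 to 0.0966, and the interferon gamma-type median was -0.197 (without cKO 2) to 0.185 (without cKO 1), with -0.145 without control 1 and 0.123 without control 2, against -0.0146 with all libraries. Of the members, 20 changed sign in at least 1 such setting. The log2FC ranged as follows: Oas3 -0.124 to 0.0624, Usp18 -0.075 to 0.405, Ifi35 -0.0506 to 0.0771, Xaf1 -0.135 to 0.114, Bst2 -0.0895 to 0.0966, Ifih1 -0.194 to 0.0447, Gbp4 -0.318 to 0.181. Further ranges were Gbp5 -0.184 to 0.128, Gbp7 -0.266 to 0.116, Igtp -0.17 to 0.13, Iigp1 -0.657 to 0.323, Irgm1 -0.21 to 0.248, Oasl2 -0.169 to 0.023, Stat2 -0.254 to 0.217. Further ranges were Rtp4 -0.371 to 0.423, Zbp1 -0.0434 to 0.0493, Gbp2 -0.327 to 0.361, Ifit2 -0.0217 to 0.0347, Cxcl10 -0.342 to 0.535, Cmpk2 -0.00936 to 0.37. Cxcl10 and Oas1a had at most 23.5 and 17.6 normalised counts in any library, and the part of depth in their spread was not tested.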
